A study of Homo sapiens with 6 samples.

Results

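WNT signalling genes were examined in H226 cells, an established human cell line of lung squamous carcinoma, after knockdown of the long noncoding RNA *SWINGN*. The genes are the rows of the count table whose names are those of WNT ligands (*WNT* with a number and, for most, a letter), Frizzled receptors (*FZD*), the coreceptors *LRP5*, *LRP6*, *ROR1*, *ROR2* and *RYK*, the secreted antagonists *DKK1* to *DKK4* and *SFRP1* to *SFRP5*, *AXIN1*, *AXIN2*, *APC*, *CTNNB1*, the TCF and LEF factors, *LGR4* to *LGR6*, *ZNRF3*, *RNF43*, *PORCN* and *WLS*. This rule found 39 of the 17222 gene names of the table. Cells received by transient transfection either ASO_LINC#3, an antisense oligonucleotide that targets *SWINGN*, or the control oligonucleotide ASO_CTRL, and RNA was collected 48 h later from 3 replicates per condition. Both groups were the same cell line and both received an oligonucleotide. The sample labels and the study's account of its results name H226 for this experiment, whereas its methods paragraph on the RNA-seq names BJ fibroblasts, so the values are given here as those of H226 on the strength of the labels. RNA was copied from oligo-dT primers and sequenced, and the comparison asks which transcripts change upon *SWINGN* depletion. Because 1 oligonucleotide sequence against *SWINGN* was set against 1 control sequence, an effect of the depletion and an effect of the oligonucleotide itself cannot be told apart.

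WNT proteins are lipid-modified secreted ligands. In the canonical branch they bind a Frizzled receptor together with LRP5 or LRP6, which stops the destruction complex of AXIN, APC and kinases from marking β-catenin for degradation, so that β-catenin enters the nucleus and acts with TCF and LEF factors. Other ligands act through Frizzled with ROR or RYK receptors on cell polarity and calcium, and the pathway limits itself through secreted antagonists and through feedback genes such as *AXIN2* and *NOTUM*.

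The reads counted on genes ranged from 3686828 in ASO_LINC#3 replicate 3 to 10546786 in ASO_CTRL replicate 3, so counts of weakly expressed genes are least precise in the former. That library also stood apart from its group: the chi-square per degree of freedom of its counts against the other knockdown libraries was 12.1 and 12.9, against 2.42 between those. Of the 9 markers of squamous epithelium listed for the labelled cell type, 2 were among the gene names of the count table and the other 7 were not. *KRT5* was between 94.2 and 117 CPM (reads per 1000000 reads counted on genes, with library sizes scaled by TMM) in the ASO_CTRL libraries and between 62.5 and 77.6 CPM in the ASO_LINC#3 libraries. *KRT6A* was at 0 in 2 of the ASO_CTRL libraries. All 7 markers listed for simple epithelium and mesothelium were above 1 CPM on average. The summed level of these 7 was from 8773 to 9277 CPM in ASO_CTRL and from 5120 to 8963 CPM in ASO_LINC#3. Of these only *CALB2* was past the thresholds used below. It fell from between 515 and 697 CPM to between 118 and 208 CPM (log2 fold change -1.97, adjusted p = 0.000195). The others had log2 fold changes from -0.92 for *UPK3B* (adjusted p = 0.0104) to 0.062 for *MSLN*. Of 6 fibroblast markers listed, 2 were among the gene names, *COL3A1* and *THY1*. They summed to between 119 and 137 CPM in ASO_CTRL and between 93.4 and 131 CPM in ASO_LINC#3, most of it *THY1*. *COL3A1* fell, from between 9.27 and 11.8 CPM to between 2.70 and 4.84 CPM (log2 fold change -1.58, adjusted p = 0.00261). *THY1* was not past the thresholds, with a log2 fold change of -0.17 (SE 0.16, adjusted p = 0.502). The part of these differences in the WNT results was not tested. *SWINGN* itself was not analysed here, so the extent of its depletion in these libraries is not given.

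Upon *SWINGN* knockdown, *WNT2B*, *WNT4*, *WNT10A*, *FZD2* and *AXIN2* fell and *WNT7A*, *FZD8* and *TCF7L1* rose. Calls required an adjusted p under 0.01 (edgeR's quasi-likelihood test with Benjamini-Hochberg adjustment over all tested genes) together with a difference of more than 0.5 on the log2 scale, up or down. Of the 39 genes, 35 passed the filter on low counts and were tested, and 8 of these were called, which is 22.9%, beside 7.54% of all 14660 tested genes. Lower calls were 5 of the 35, where 2.63% of all tested genes were called lower, and higher calls were 3 of the 35, where 4.91% of all tested genes were called higher. Of these 3, *FZD8* was tested only because its knockdown libraries passed the filter. The 27 genes that were not called had log2 fold changes from -0.45 to 0.69 with a median of 0.017, and the median of all 35 was -0.052 against -0.0027 over all tested genes. The libraries of the groups did not overlap for 13 of the 35 genes, which is 37.1%, beside 36.1% of all tested genes. The knockdown libraries lay above the controls for 3 of the 35 genes, which is 8.57% beside 18.7% of all tested genes, and below them for 10 of the 35, which is 28.6% beside 17.3% of all tested genes. The labels do not say whether replicates came from separate cultures, and the study states in general terms that its experiments had 3 biological replicates. If these were not separate cultures, the p-values measure only the spread between the libraries, which may be technical. In RNA of whole cultures, fewer cells with a transcript and less transcript per cell cannot be told apart.

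**Figure D1:**
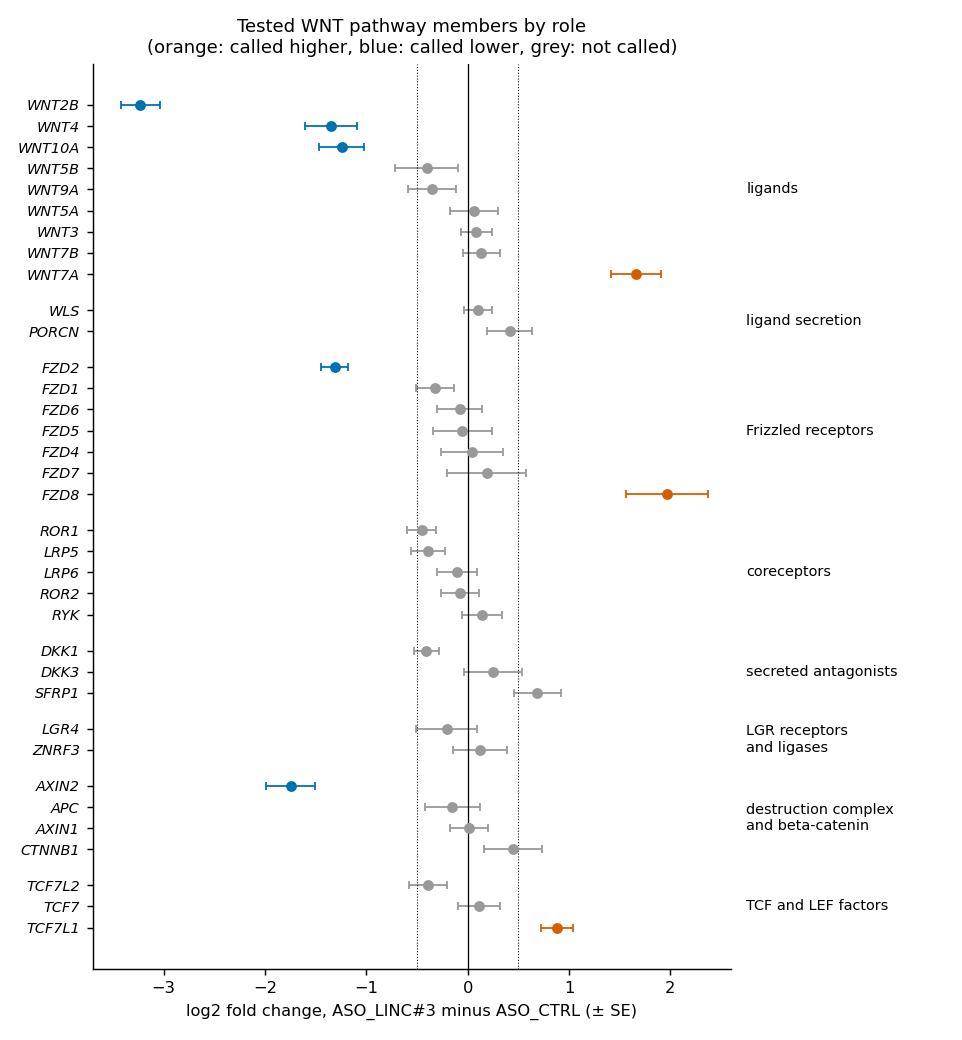
Log2 fold change (x axis, ASO_LINC#3 minus ASO_CTRL, bars show ± SE) of the 35 tested WNT pathway genes, grouped by role, with dotted lines at the bound of 0.5. *WNT2B* lies farthest to the left at -3.23 and *FZD8* farthest to the right at 1.97, and most genes sit between the dotted lines.

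Of the 10 ligand genes, 9 were tested, of which 3 fell and 1 rose. That is 44.4% called, beside 7.54% of all tested genes. *WNT2B*, a ligand of the canonical branch (chr1:113009163-113072787 in GRCh37, plus strand), fell the most of all 35 genes. Its level was 155, 183 and 182 CPM in ASO_CTRL replicates 1, 2 and 3 and 19.1, 13.5 and 23.5 CPM in ASO_LINC#3 replicates 1, 2 and 3. Each knockdown library was far below each control library, and the knockdown libraries spread more widely relative to their mean than the controls. The log2 fold change was -3.23 (SE 0.20, adjusted p = 6.66e-06), a 9.37-fold lower level. These CPM rest on 1154, 1064 and 1909 reads in the controls and on 130, 79 and 87 reads in the knockdown, so sampling noise is small beside the difference. The annotation has 4 *WNT2B* transcripts, 3 of which hold both of the study's RT-qPCR primers in coding exons. The primers are shown because they mark a stretch that these coding transcripts share, the forward one at chr1:113058966-113058985 and the reverse one, which reads the minus strand, at chr1:113059752-113059771 (GRCh37).
*WNT2B* forward primer: tggatgccaaggagaagagg
*WNT2B* reverse primer: cactccagcttcagaaaccg
Counts per gene name do not separate these transcripts, so which of them fell was not tested.

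**Figure D2:**
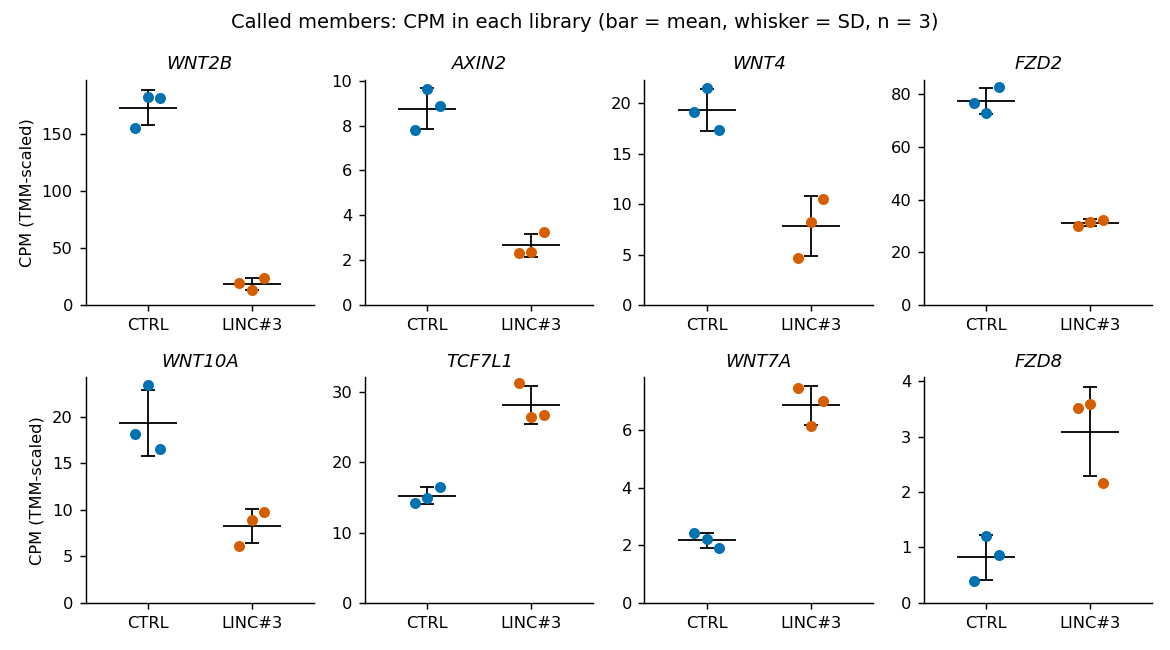
CPM (y axis, scaled by TMM, from 0) of the 8 called genes in each library of ASO_CTRL and ASO_LINC#3, with the mean as a bar and the SD as whiskers (n = 3). For each gene every knockdown library lies on the same side of every control library, from *WNT2B* at 173 against 18.7 CPM on average to *FZD8* at 0.820 against 3.09 CPM.

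*WNT4*, which is needed for the kidney and the female reproductive tract (chr1:22443806-22470462, minus strand), was at 19.1, 21.5 and 17.3 CPM in the control libraries and at 4.69, 8.19 and 10.5 CPM in the knockdown libraries. The knockdown libraries were all below the controls, but they spread more widely than the controls. Its log2 fold change was -1.35 (SE 0.26, adjusted p = 0.00579). *WNT10A*, a ligand known from teeth, hair and other skin appendages (chr2:219745574-219764303, plus strand), had a like size of change. It was at 18.1, 23.3 and 16.6 CPM in the controls and at 6.16, 8.88 and 9.73 CPM in the knockdown, with no overlap and a log2 fold change of -1.24 (SE 0.22, adjusted p = 0.00429). *WNT7A*, known from limb patterning and the reproductive tract (chr3:13857755-13921568, minus strand), went the other way. It was at 2.42, 2.23 and 1.90 CPM in the controls and at 7.48, 6.15 and 7.03 CPM in the knockdown. All 3 knockdown libraries lay above the controls, with a log2 fold change of 1.66 (SE 0.25, adjusted p = 0.00138), on 13 to 20 reads per control library and 26 to 51 per knockdown library.

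The 250 bases before the RefSeq transcript starts of the 4 called ligands are shown because each of these genes was called, 3 lower and 1 higher. They were taken from the RefSeq promoter table (GRCh38.p14) and each was found at a single exact match in GRCh37, whose coordinates are given. Capitals mark the letters ACGTG or GCGTG, or their reverse complements, the core of the hypoxia response element.
*WNT2B* upstream start, chr1:113008913-113009162, plus strand: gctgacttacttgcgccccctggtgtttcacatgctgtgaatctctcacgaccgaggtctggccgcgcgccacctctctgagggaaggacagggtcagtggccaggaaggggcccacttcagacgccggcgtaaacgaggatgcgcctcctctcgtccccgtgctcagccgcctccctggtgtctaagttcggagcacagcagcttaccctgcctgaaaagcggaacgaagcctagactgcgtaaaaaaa
*WNT2B* downstream start, chr1:113051337-113051586, plus strand: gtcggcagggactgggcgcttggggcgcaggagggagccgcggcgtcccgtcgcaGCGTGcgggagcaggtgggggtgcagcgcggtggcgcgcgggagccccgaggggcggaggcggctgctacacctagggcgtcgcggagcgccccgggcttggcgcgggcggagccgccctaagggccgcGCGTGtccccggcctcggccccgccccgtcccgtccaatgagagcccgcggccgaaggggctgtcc
*WNT4*, chr1:22469591-22469840, minus strand: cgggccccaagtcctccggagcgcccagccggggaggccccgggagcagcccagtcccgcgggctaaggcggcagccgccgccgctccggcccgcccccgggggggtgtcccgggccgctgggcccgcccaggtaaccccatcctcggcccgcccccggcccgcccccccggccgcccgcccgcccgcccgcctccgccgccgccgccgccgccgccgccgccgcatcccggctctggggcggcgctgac
*WNT10A*, chr2:219745324-219745573, plus strand: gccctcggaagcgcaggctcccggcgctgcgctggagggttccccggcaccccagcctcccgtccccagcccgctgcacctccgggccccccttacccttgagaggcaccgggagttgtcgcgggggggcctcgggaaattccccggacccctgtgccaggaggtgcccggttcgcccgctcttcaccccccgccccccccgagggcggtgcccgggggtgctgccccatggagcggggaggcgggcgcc
*WNT7A*, chr3:13921569-13921818, minus strand: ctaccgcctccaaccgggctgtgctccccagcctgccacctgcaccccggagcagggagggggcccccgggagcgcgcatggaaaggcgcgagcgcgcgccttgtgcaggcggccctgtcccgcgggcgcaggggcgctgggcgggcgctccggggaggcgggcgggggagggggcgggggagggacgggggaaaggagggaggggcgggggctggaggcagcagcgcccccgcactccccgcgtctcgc
G and C made up 60.4% of the letters at the upstream start of *WNT2B* and 80% at its downstream start, 86.8% for *WNT4*, 77.6% for *WNT10A* and 80.4% for *WNT7A*. The hypoxia response core occurred 2 times at the downstream start of *WNT2B* and at none of the other 4 sequences shown. Over the 300 bases of the table, which end 50 bases past the start, 28 of the 39 genes had 38 promoters, and 18 of these held the hypoxia core on either strand, which is 47.4% beside 48.4% of all 35116 promoters and 61.0% of those of tested genes. Among the called genes, 6 had a promoter there, and the hypoxia core was in 4 of their 7 promoters, which is 57.1%. The TCF and LEF motif (CTTTG and then 2 letters that are each A or T, both strands) was in 4 of the 38, which is 10.5% beside 13.8% of all promoters and 9.18% of those of tested genes, and in 0 of the 7 promoters of the 6 called genes that had one. The called genes *AXIN2* and *FZD2* had no promoter in the table, so theirs were not searched. The AP-1 motif (TGACTCA, which reads TGAGTCA on the other strand) was in 1 of the 38, which is 2.63% beside 4.95% of all promoters and 3.67% of those of tested genes, and in 0 of the 7 promoters of called genes. These letters are a description of the stretches searched, not of binding.

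The 5 other tested ligands were not called. *WNT3*, a canonical ligand of the intestinal crypt and the early embryo, was the second most counted ligand of the control libraries, at 31.8, 28.7 and 33.9 CPM, and was at 35.8, 35.3 and 28.9 CPM in the knockdown libraries. The groups overlapped, with a log2 fold change of 0.088 (SE 0.15, adjusted p = 0.728). *WNT9A*, known from joint formation, did not overlap between the groups, at 4.30, 4.81 and 5.23 CPM in the controls and 3.96, 3.93 and 3.24 CPM in the knockdown, with a log2 fold change of -0.35 (SE 0.24, adjusted p = 0.339). *WNT7B*, a ligand of lung development, had a log2 fold change of 0.13, *WNT5A* and *WNT5B*, which act mostly outside the β-catenin branch, had 0.061 and -0.40, and the groups overlapped for these 3 genes.

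Summed over the 10 ligand genes, the level was 261, 294 and 284 CPM in the controls and 105, 101 and 118 CPM in the knockdown, a mean of 279.6 ± 16.8 against 108 ± 8.71 (SD, n = 3). The groups were far apart, and most of the gap was *WNT2B*. Without it the sum was 106 ± 4.40 CPM in ASO_CTRL and 89.1 ± 4.35 CPM in ASO_LINC#3 (SD, n = 3). *WNT2B* made up 61.9% ± 2.31 of the ligand CPM in ASO_CTRL and 17.2% ± 3.42 in ASO_LINC#3, and *WNT3* went from 11.3% ± 1.34 to 31.2% ± 5.77 (SD, n = 3). The shares add up to 100%, so the larger share of *WNT3* went with a CPM that overlapped between the groups. *WNT7B* went from 4.65% ± 0.833 to 13.2% ± 0.738 in the same way, whereas *WNT7A*, whose CPM rose, went from 0.785% ± 0.130 to 6.40% ± 0.631 (SD, n = 3). These sums and shares are descriptions with no test.

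**Figure D3:**
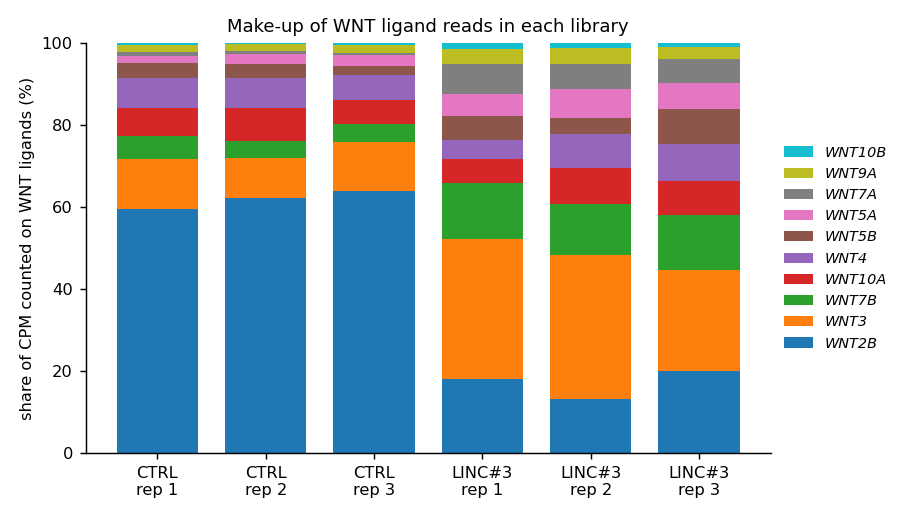
Share of the summed ligand CPM (y axis, %) taken by each of the 10 WNT ligand genes in each library (x axis). *WNT2B* fills on average 61.9% of the control bars and 17.2% of the knockdown bars, where *WNT3* at 31.2% is the largest part.

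Levels of different genes were compared per length of the longest annotated transcript. On this scale *WNT2B* was the highest ligand in the controls at 15.6 ± 1.41 CPM per kb, followed by *WNT10A* at 9.42 ± 1.73 and *WNT3* at 9.22 ± 0.770 CPM per kb, which did not differ beyond their spread (SD, n = 3). In the knockdown *WNT3* was the highest at 9.78 ± 1.12 CPM per kb, above *WNT10A* at 4.02 ± 0.908, *WNT7B* at 3.61 ± 0.443 and *WNT2B* at 1.68 ± 0.452 CPM per kb (SD, n = 3). The level of *WNT2B* per kb rests on a transcript of 11130 bases, while another coding transcript has 2819 bases. How the reads spread along transcripts after priming from the poly(A) tail was not analysed here.

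Ligands leave the cell after PORCN has added their lipid and WLS has carried them to the surface, and neither gene was called by edgeR's quasi-likelihood test, DESeq2 or limma-voom or had an unadjusted p under 0.05. *WLS* was at 27.0, 25.1 and 24.5 CPM in the controls and at 26.8, 28.2 and 27.0 CPM in the knockdown, with overlap and a log2 fold change of 0.10 (SE 0.14, adjusted p = 0.661). *PORCN* had a log2 fold change of 0.42 (SE 0.22, adjusted p = 0.223), and was at 9.54, 9.27 and 9.04 CPM in the controls and at 9.38, 12.3 and 16.2 CPM in the knockdown, where 2 libraries lay above all controls and 1 within their range.

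Of the 8 Frizzled receptor genes, 7 were tested, and 1 fell and 1 rose. That is 28.6% called, beside 7.54% of all tested genes. *FZD2* (chr17:42634852-42638630, plus strand) had the highest level of the Frizzled genes in the controls, at 20.5 ± 1.32 CPM per kb (SD, n = 3). Its CPM was 76.6, 73.0 and 82.8 in the control libraries and 29.9, 31.4 and 32.4 in the knockdown libraries. Both groups were tight and far apart, with a log2 fold change of -1.31 (SE 0.13, adjusted p = 0.000141), a 2.48-fold lower level. *FZD8* (chr10:35927175-35931224, minus strand) was close to the limit of detection in the controls, with 3, 7 and 9 reads against 24, 21 and 8 reads in the knockdown. In CPM it was 0.403, 1.20 and 0.857 in the controls and 3.52, 3.59 and 2.16 in the knockdown, so that the groups did not overlap on this scale, although ASO_LINC#3 replicate 3 with 8 reads is a smaller library than ASO_CTRL replicate 3 with 9 reads. Its log2 fold change was 1.97 (SE 0.40, adjusted p = 0.00801), the least precise of the 8 calls. *FZD8* passed the filter on low counts only through its knockdown libraries, so its call depends on the group where it was higher. Without the filter it was not called, with an adjusted p of 0.0101 in edgeR's test. With at least 10 counts asked of every library it was not tested.

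*FZD6*, a receptor of the planar polarity branch, had the highest CPM of the Frizzled genes after *FZD2* in the controls, and a higher CPM than *FZD2* in the knockdown. It was at 28.2, 50.6 and 41.8 CPM in the controls and at 43.5, 39.8 and 29.7 CPM in the knockdown, with wide overlap and a log2 fold change of -0.079 (SE 0.22, adjusted p = 0.840). The log2 fold changes of *FZD1*, *FZD4*, *FZD5* and *FZD7* ran from -0.32 to 0.19, and their groups overlapped. Summed over the Frizzled genes, the level was 147 ± 11.4 CPM in ASO_CTRL and 96.5 ± 9.21 CPM in ASO_LINC#3 (SD, n = 3). Per kb, *FZD6* at 10.1 ± 1.91 and *FZD2* at 8.27 ± 0.337 CPM per kb did not differ beyond their spread in the knockdown, whereas in the controls *FZD6* was at 10.8 ± 3.03 CPM per kb, below *FZD2* (SD, n = 3).

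None of the 5 coreceptor genes was called by edgeR's quasi-likelihood test, DESeq2 or limma-voom. In edgeR's test the unadjusted p was 0.00800 for *ROR1* and 0.0382 for *LRP5*. Such values were common among all tested genes, since 0.0382 became 0.129 after adjustment. The groups did not overlap for 2 of the 5 coreceptors, which is 40% beside 36.1% of all tested genes. *ROR1*, a receptor kinase for noncanonical ligands, was at 34.7, 33.5 and 38.4 CPM in the controls and at 25.7, 27.0 and 25.1 CPM in the knockdown. All knockdown libraries lay below the controls, with a log2 fold change of -0.45 (SE 0.14, adjusted p = 0.0461), which missed both thresholds. *LRP5* was at 17.1, 17.2 and 19.1 CPM against 12.9, 15.0 and 12.7 CPM, again without overlap, with a log2 fold change of -0.39 (SE 0.17, adjusted p = 0.129). Its partner *LRP6*, with *ROR2* and *RYK*, had log2 fold changes from -0.11 to 0.14 and overlapping groups. *LGR4*, a receptor for R-spondins, and *ZNRF3*, a ligase that removes Frizzled receptors from the surface, had -0.21 (SE 0.31) and 0.12 (SE 0.27), also with overlap.

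None of the 3 tested antagonists was called by edgeR's quasi-likelihood test, DESeq2 or limma-voom. In edgeR's test the unadjusted p was 0.00643 for *DKK1* and 0.0136 for *SFRP1*. Such values were common among all tested genes, since 0.0136 became 0.0644 after adjustment. The groups did not overlap for 33.3% of the antagonists, beside 36.1% of all tested genes. *DKK1*, which blocks LRP5 and LRP6, had the highest level of all 39 genes per length in both groups, at 111 ± 8.19 CPM per kb in ASO_CTRL and 83.3 ± 2.82 CPM per kb in ASO_LINC#3 (SD, n = 3). Its CPM was 206, 210 and 183 in the controls and 154, 145 and 153 in the knockdown. The groups did not overlap, and the log2 fold change was -0.41 (SE 0.12, adjusted p = 0.0399), under the bound of 0.5 and above the p threshold. *SFRP1*, which binds WNT ligands outside the cell, was at 5.78, 8.07 and 5.90 CPM in the controls and at 11.3, 11.8 and 7.84 CPM in the knockdown. Replicate 3 of the knockdown lay below replicate 2 of the controls, and the log2 fold change was 0.69 (SE 0.23, adjusted p = 0.0644). *DKK3*, a divergent member of the DKK family, had 0.25 (SE 0.29) with overlap.

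Of the 4 tested genes of the destruction complex and β-catenin, *AXIN2* fell. *AXIN2* (chr17:63524681-63557766, minus strand) encodes a scaffold of the complex and is itself switched on by β-catenin with TCF, so that it is widely read as a reporter of the canonical branch. It was at 7.79, 9.61 and 8.85 CPM in the controls and at 2.35, 2.39 and 3.24 CPM in the knockdown. The groups were far apart, with a log2 fold change of -1.75 (SE 0.24, adjusted p = 0.000965), a 3.35-fold lower level, on 56 to 93 reads per control library and 12 to 16 per knockdown library. Its paralogue *AXIN1*, which is not known as such a target, was at 35.3, 32.8 and 24.2 CPM in the controls and at 30.4, 26.5 and 36.8 CPM in the knockdown. These groups overlapped, with a log2 fold change of 0.017 (SE 0.19, adjusted p = 0.963), whose sign turns under upper quartile scaling to -0.0042. *CTNNB1*, the gene of β-catenin, and *APC* had 0.45 (SE 0.28) and -0.15 (SE 0.27) with overlap.

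Of the TCF and LEF factors, which bind β-catenin on DNA, *TCF7L1* rose and *TCF7* and *TCF7L2* were not called. *TCF7L1*, known mainly as a repressor of WNT targets (chr2:85360515-85537510, plus strand), was at 14.2, 14.9 and 16.6 CPM in the controls and at 31.2, 26.5 and 26.8 CPM in the knockdown. Each knockdown library was above each control, with a log2 fold change of 0.88 (SE 0.16, adjusted p = 0.00407), a 1.85-fold higher level. *TCF7L2*, the factor that dominates in gut epithelium, was at 16.4, 18.7 and 17.5 CPM in the controls and at 15.2, 14.2 and 10 CPM in the knockdown. These did not overlap, but the log2 fold change of -0.39 (SE 0.19, adjusted p = 0.182) was not past the thresholds. *TCF7* was at 0.11 (SE 0.20) on the log2 scale.

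The filter on low counts removed 4 genes, for which no test is given. *FZD3* had 7, 5 and 7 reads in the controls and 1, 2 and 1 reads in the knockdown, *LEF1* had 7, 7 and 18 against 13, 4 and 1 reads, *RNF43* had 1, 4 and 8 against 4, 5 and 2 reads, and *WNT10B* had 12, 5 and 18 against 11, 8 and 5 reads. Only *FZD3*, a receptor of axon guidance, did not overlap among these 4, and it was at 0.941, 0.858 and 0.666 CPM in the controls and 0.147, 0.341 and 0.270 CPM in the knockdown. No fold is given for it because its knockdown libraries hold 3 reads or fewer each.

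Other genes of the pathway were read in 5 lists, which together name 102 genes, of which 81 were in the table and 76 were tested. Of these 76, 5 rose and 4 fell, which is 11.8% called beside the 7.54% of all tested genes, and their median log2 fold change was -0.022. Among 14 tested targets of β-catenin and TCF outside the rule, 3 rose and 3 fell, with a median of 0.19. That is 42.9% called, beside 7.54% of all tested genes, of which 4.91% were called higher and 2.63% lower. Those that fell were *FGF18*, a growth factor, from 220.3 ± 12.2 to 52.7 ± 4.74 CPM, *BMP4*, a ligand of another pathway, from 64.7 ± 10.7 to 15.7 ± 2.99 CPM, and *ID2*, an inhibitor of bHLH factors, from 160.3 ± 32.8 to 64.7 ± 3.73 CPM (SD, n = 3). Their log2 fold changes were -2.07 (SE 0.13), -2.05 (SE 0.19) and -1.31 (SE 0.17). Those that rose were *PPARD*, a nuclear receptor, with 1.29 (SE 0.16), *NOTUM*, an enzyme that strips the lipid from WNT ligands, with 0.88 (SE 0.16), and *CD44*, a surface receptor for hyaluronan, with 0.86 (SE 0.13) on the log2 scale. *AXIN2* and *NOTUM*, both known as feedback targets, thus moved in opposite directions, *NOTUM* from 11.1 ± 0.684 to 20.3 ± 1.09 CPM (SD, n = 3). *MYC* and *CCND1*, the targets most often cited, were not called, with log2 fold changes of 0.57 (SE 0.13, adjusted p = 0.0144) and -0.048 (SE 0.14, adjusted p = 0.850). The knockdown libraries lay above the controls for 6 of the 14 targets, *MYC* among them, which is 42.9% beside 18.7% of all tested genes. For 3 of the 14 they lay below the controls, which is 21.4% beside 17.3% of all tested genes.

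Of 20 tested genes of cytoplasmic signalling, edgeR called 10%, beside 7.54% of all tested genes. The knockdown libraries lay above the controls for 8 of the 20, which is 40% beside 18.7% of all tested genes. For 3 of the 20 they lay below the controls, which is 15% beside 17.3% of all tested genes. DESeq2 called 3 of the 20 higher and 0 lower and limma-voom 2 higher and 0 lower, and the median was 0.27 on the log2 scale. In edgeR's test 2 rose and 0 fell. They were *CSNK1E*, a casein kinase that acts on DVL proteins, at 0.87 (SE 0.12, adjusted p = 0.000995), and *TNKS2*, a tankyrase that marks AXIN proteins for degradation, at 1.28 (SE 0.24, adjusted p = 0.00521). *CSNK1E* went from 49.4 ± 1.06 to 90.4 ± 3.15 CPM and *TNKS2* from 4.67 ± 1.33 to 11.3 ± 0.812 CPM (SD, n = 3). Of 8 tested secreted modulators edgeR called only *NOTUM*, which is 12.5% beside 7.54% of all tested genes, while DESeq2 and limma-voom each called 2 higher. *TPBG*, a surface protein that inhibits the canonical branch, lay just outside the threshold in edgeR, at 140.1, 139.7 and 137 CPM in the controls and 195, 207 and 201 CPM in the knockdown, without overlap and with a log2 fold change of 0.53 (SE 0.11, adjusted p = 0.0101). Of 20 tested genes of the polarity and calcium branch edgeR called only *CELSR2*, which is 5% of that list. *CELSR2*, a large cadherin of planar polarity, fell by 1.18 (SE 0.24, adjusted p = 0.00745) on the log2 scale. None of the 16 nuclear cofactors was called by edgeR's quasi-likelihood test, DESeq2 or limma-voom. The groups did not overlap for 18.8% of them, beside 36.1% of all tested genes. *BCL9L* had an unadjusted p of 0.0239 in edgeR's test, with a log2 fold change of -0.55 (adjusted p = 0.0926). Without ASO_LINC#3 replicate 3, where 17.2% of all tested genes were called in place of 7.54%, the calls were 5 higher and 1 lower among the cytoplasmic genes, 4 higher and 3 lower among the targets, 2 higher among the secreted modulators, 1 higher and 2 lower in the polarity and calcium branch and 1 lower among the nuclear cofactors.

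**Figure D4:**
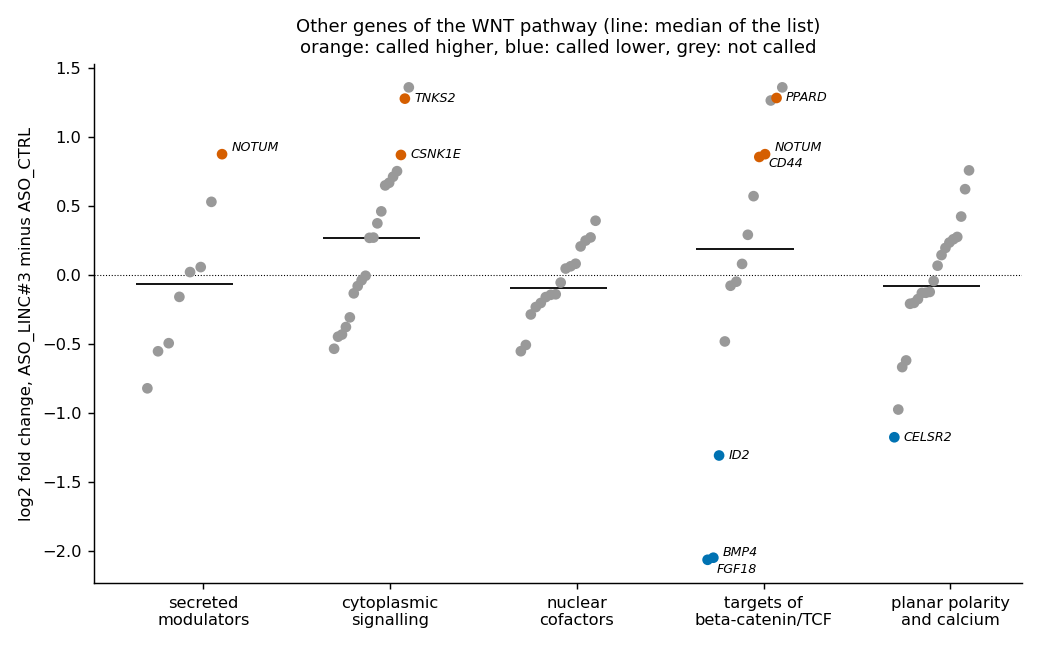
Log2 fold change (y axis, ASO_LINC#3 minus ASO_CTRL) of the tested genes in 5 lists of other WNT pathway genes (x axis), 1 point per gene, with the median of each list as a line and the called genes named. The called targets lie on both sides of 0, from *FGF18* at -2.07 to *PPARD* at 1.29, and no nuclear cofactor is called.

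Up to 2 tested genes on each side of the called members were read, and most of them were not called. *ST7L*, which overlaps *WNT2B* on the opposite strand, had a log2 fold change of -0.0097 (SE 0.20, adjusted p = 0.981), and *CTTNBP2NL*, which ends 3085 bases before *WNT2B*, had 0.20 (SE 0.17, adjusted p = 0.456). The next tested gene on that side, *KCND3*, a potassium channel gene 476873 bases away, fell by 2.77 (SE 0.28, adjusted p = 0.000146) on the log2 scale. On the other side *CAPZA1* and *MOV10* were not called, with 0.018 and -0.74. Beside *FZD8*, *CREM* at 425289 bases rose by 1.05 (SE 0.19, adjusted p = 0.00432) and *NAMPTL* at 879425 bases by 0.96 (SE 0.17, adjusted p = 0.00382) on the log2 scale, and none of the tested neighbours of the other 6 called members was called. Several members overlap another gene of the table, such as *TCF7* with *SKP1*, *CTNNB1* with *ULK4*, *WNT5B* with *FBXL14*, *FZD4* with *PRSS23* and *DKK3* with *USP47*, all on opposite strands. The strand setting of the counting is not given in the sources used here, so reads of such pairs may not be separated.

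DESeq2 and limma-voom called the same 8 genes as edgeR, beside 9.61% and 8.27% of all genes that they tested. *WNT2B*, *FZD2* and *AXIN2* were called with any 1 of the 6 libraries left out. *WNT2B* then ranged from -3.40 to -3.03, *FZD2* from -1.35 to -1.26 and *AXIN2* from -1.87 to -1.66 on the log2 scale. Without ASO_LINC#3 replicate 3, the library that stood apart, all 8 genes were called, beside 17.2% of all genes then tested, with log2 fold changes of -3.40 for *WNT2B*, -1.59 for *WNT4*, -1.36 for *WNT10A*, 1.66 for *WNT7A*, -1.34 for *FZD2*, 2.12 for *FZD8*, -1.87 for *AXIN2* and 0.92 for *TCF7L1*. Without any 1 of the other 5 libraries, that is ASO_CTRL replicate 1, 2 or 3 or ASO_LINC#3 replicate 1 or 2, 4 genes were no longer called. Their adjusted p was then from 0.0165 to 0.0262 for *WNT4*, from 0.0124 to 0.0262 for *WNT10A*, from 0.0120 to 0.0277 for *TCF7L1* and from 0.0165 to 0.0452 for *FZD8*, and their direction did not change. *WNT7A* was no longer called without ASO_CTRL replicate 3 (adjusted p = 0.0155) and without ASO_LINC#3 replicate 1 (adjusted p = 0.0117).

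**Figure D5:**
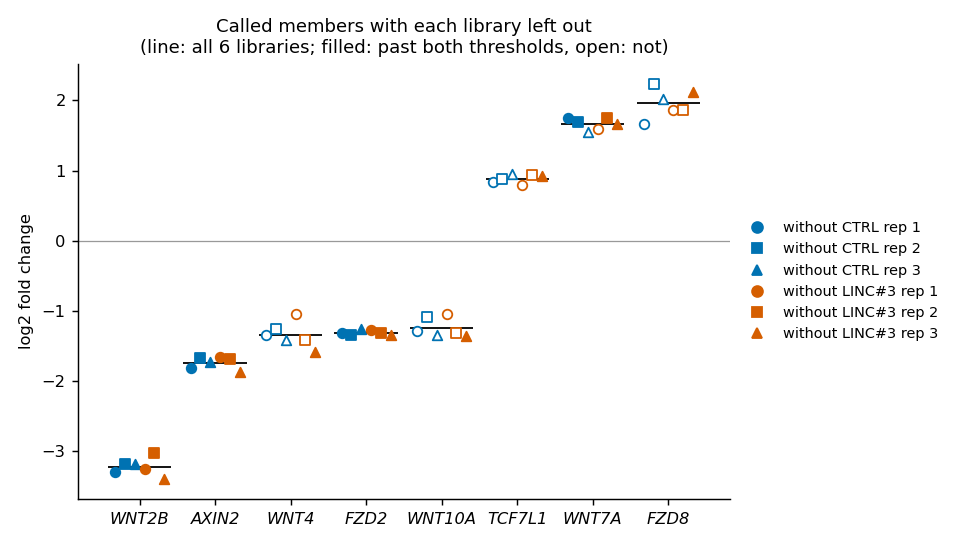
Log2 fold change (y axis) of the 8 called genes (x axis) with each of the 6 libraries left out, filled where the gene was past both thresholds and open where it was not, and with a line at the value from all 6 libraries. *WNT2B* (-3.40 to -3.03), *FZD2* and *AXIN2* are filled throughout, whereas *WNT4*, *WNT10A*, *TCF7L1* and *FZD8* are filled only without ASO_LINC#3 replicate 3.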

How the data were processed

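RNA of H226 cells, 3 libraries per condition, was reverse-transcribed from oligo-dT primers and sequenced by the authors as reads of 75 bases. Per the labels and the study's methods they aligned to hg19 (GRCh37) with STAR, and the deposited values are raw counts per gene name; the counting tool, annotation and strand setting are not given in the sources used here. The table ends with 4 totals of reads on no gene (24.8% to 28.1% of each library), which were left out. It holds 0 columns of other samples.

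Groups came from the sample labels. The comparison used edgeR 4.0.16 (R 4.3.3): filterByExpr (14660 genes kept), TMM scaling (factors 0.972 to 1.02), glmQLFit and glmQLFTest without robust estimation, and Benjamini-Hochberg adjustment over all tested genes. Genes were called at adjusted p below 0.01 and log2 fold change beyond 0.5. The common biological coefficient of variation was 0.159. Levels are TMM-scaled CPM, mean ± SD of 3 libraries, and SEs come from the fit. Intervals of depth are not given, since no value rests on a single library.

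Positions, lengths and GC content were those of GENCODE v44 lifted over to GRCh37, which need not be the release used for counting (13370 of 17222 names matched by name, 970 by an older symbol). Alternatives were DESeq2 1.42.0, limma-voom (limma 3.58.1), 3 other scalings, dropping the filter or asking for 10 counts or more in each library, robust estimation, adjusted p of 0.05, glmTreat, the replicate number as a block, removal of GC content and length trends (splines of 5 degrees of freedom, 87.2% of tested genes with values) and leaving out each library.

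The members, the lists and the thresholds were chosen with earlier results of these data known. Every member is accounted for. Values per library are given for members past both thresholds, members whose groups do not overlap and members of at least 20 CPM on average; *SFRP1*, *MYC*, *CCND1*, *BCL9L*, *TPBG* and the neighbouring genes were named after their values were seen. A protein comparison planned for the ligands was not run.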

Additional observations from a re-analysis of the deposited data

How the results depend on the processing

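The count of called members was 8 with all 6 libraries. It was 8 under DESeq2, limma-voom, the 3 other scalings, robust dispersion, an adjusted p of 0.05 and the GC and length correction, 7 without a filter and with at least 10 counts in every library, and 4 under glmTreat, which tests against the bound of 0.5 itself and kept *WNT2B*, *FZD2*, *AXIN2* and *WNT7A*. With each library left out it ranged from 3 to 8. Over all genes the count of 1106 became 2465 at an adjusted p of 0.05, 384 under glmTreat and 1711 with the GC and length correction, and it ranged from 359 to 2616 with each library left out, the latter without ASO_LINC#3 replicate 3.

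Deviations of same-numbered libraries correlated at 0.059, -0.149 and -0.180, which gave no sign of pairing by replicate number. With 3 libraries per group and ASO_LINC#3 replicate 3 apart from its group, these values cannot show whether same-numbered libraries were prepared together. With the replicate number as a block, 656 genes and 6 members were called, and with the block and the GC and length correction together 1196 genes and 6 members. *TCF7L1* and *FZD8* were not called in either, at an adjusted p of 0.0161 and 0.0186 under the block alone.

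Of the called members, 94 of their values under settings other than a left-out library kept direction and call and 9 lost the call. Of the members not called, 346 kept their direction and 4 turned: *AXIN1* to -0.0042 under upper quartile scaling, *RYK* to -0.0092 and *WNT5A* to -0.0147 under the GC and length correction, and *RYK* to -0.0044 under that correction with the block. With a library left out, the sign turned for *FZD4* (-0.17 to 0.24), *FZD5* (-0.20 to 0.16), *FZD6* (-0.28 to 0.12), *LGR4* (-0.42 to 0.0053), *ZNRF3* (-0.098 to 0.30), *LRP6* (-0.22 to 0.037), *ROR2* (-0.20 to 0.056), *APC* (-0.30 to 0.032), *AXIN1* (-0.14 to 0.13) and *WNT5A* (-0.092 to 0.18). The cause was not tested. Under 10 reads in at least 1 library were counted for *FZD8*, *FZD7* and the 4 untested genes.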
